A study of Mus musculus with 12 samples.

Results

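The 10 genes described here are transcription factors of epithelial-mesenchymal transition and their mesenchymal target genes: Zeb1, Zeb2, Snai1, Snai2, Twist1 and Twist2, and Cdh2, Cdh11, Vim and Fn1. They were chosen by symbol from the 22738 gene rows of a raw count table, and all 10 had a row. Of these, 9 had enough counts for the test, and Twist2 did not. RNA was sequenced from lung tumours of mice that carry the alleles Rb1/Trp53/MycT58A, which model small cell lung cancer, an aggressive neuroendocrine carcinoma. All groups share the genotype and the airway instillation of Ad5CGRP-Cre, an adenovirus in which the promoter of a neuroendocrine peptide gene drives Cre recombinase. The combination group received entinostat, which inhibits class I histone deacetylases and was given by mouth at 15 mg/kg daily for 28 days, together with an anti-PD-1 antibody, which blocks a checkpoint receptor on T cells, at 10 mg/kg for 4 weeks. The entinostat group received the inhibitor alone, the anti-PD-1 group received the antibody alone, and the control group received neither, with 3 libraries per group and 12 in all. The protocols name methylcellulose and an isotype antibody as controls, without saying which of them the control libraries had. Tumours were induced at 8 weeks of age in the first cohort, and the age of the sequenced mice was not stated in the labels. The Cre virus acts on airway cells that use the neuroendocrine promoter, so stroma, vessels, immune cells and residual lung in the dissected tissue keep unrecombined alleles. Whether every library is from its own mouse is not stated, and the p-values reflect only how much these libraries vary, which may be technical.

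In epithelial-mesenchymal transition, cells lose junctions such as those formed by E-cadherin and take on a motile form with vimentin filaments and a fibronectin matrix. SNAI and ZEB proteins are zinc finger repressors and TWIST proteins are basic helix-loop-helix factors. They bind E-box sequences in epithelial genes and recruit corepressors, among them complexes that contain class I histone deacetylases. The same genes are used by fibroblasts, vessel cells and macrophages, so their RNA in a tumour need not come from tumour cells.

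In brief, Fn1, which encodes fibronectin, was higher in the libraries with entinostat. The factor genes Snai1 and Twist1, present at low levels, were higher with the combination than in control. Zeb1, Cdh2 and Vim, which were expressed in every library, and Zeb2, Cdh11 and Snai2 did not pass the test in any comparison, and the calls of Fn1, Snai1 and Twist1 were lost in several of the fits that left out a library.

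Total counts ranged from 31295987 to 36146798 with the combination, from 31987261 to 40469275 with entinostat, from 34107018 to 37076865 with anti-PD-1 and from 40534618 to 54001886 in control. The structural RNAs Rpph1, Rn45s and Rmrp took between 17.7% and 18.0% of the counts with the combination, between 15.2% and 19.3% with entinostat, between 20.5% and 36.4% with anti-PD-1 and between 7.84% and 13.2% in control. Leaving these RNAs out changed no call of the 10 genes. The 16 neuroendocrine markers were detected in all 12 libraries, with a summed level between 602 and 1159 CPM with the combination, 764.5 and 1295.5 CPM with entinostat, 1025 and 1565 CPM with anti-PD-1 and 1338 and 2189 CPM in control. CPM are counts scaled to a common library size with TMM factors (trimmed mean of M values). Control library 1 lay far from the other libraries on the first principal component, and results that rest on it are given with and without it.

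Levels were compared between genes per kilobase of exon, taking all annotated exons of a gene together. Such a length can exceed that of the transcript that is made. It was 11.7 kb for Fn1, 4.74 kb for Vim, 10.3 kb for Zeb1 and 19.9 kb for Zeb2. The order of genes near each other depends on these lengths. Over the 12 libraries Fn1 averaged 24.1 ± 13.6 CPM per kb and Vim, the intermediate filament vimentin, 22.8 ± 8.99 (SD, n = 12). Cdh2, which encodes N-cadherin, averaged 10.6 ± 2.71 CPM per kb and Zeb1 averaged 7.04 ± 1.38. Cdh11, a cadherin of mesenchymal cells, averaged 6.02 ± 5.99 CPM per kb and Zeb2 averaged 3.15 ± 1.77. Below these came Twist1 at 1.01 ± 1.30, Snai1 at 0.88 ± 1.00, Snai2 at 0.75 ± 0.63 and Twist2 at 0.031 ± 0.019 CPM per kb. In each of the 12 libraries the SNAI and TWIST genes lay below Zeb1, Cdh2, Vim and Fn1. The neighbours Fn1 and Vim, Zeb1 and Cdh11, and Twist1, Snai1 and Snai2 did not differ beyond their spread. By these lengths, Fn1 exceeded Vim per kilobase in 6 of 6 libraries with entinostat and in 2 of 6 without, and other lengths could change these counts. Per kilobase, Zeb1 exceeded Zeb2 in 11 of 12 libraries and Cdh2 exceeded Cdh11 in 10 of 12. Before division by length, Zeb1 and Zeb2 were closer, at 72.3 ± 14.2 and 62.8 ± 35.3 CPM (SD, n = 12).

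**Figure D1:**
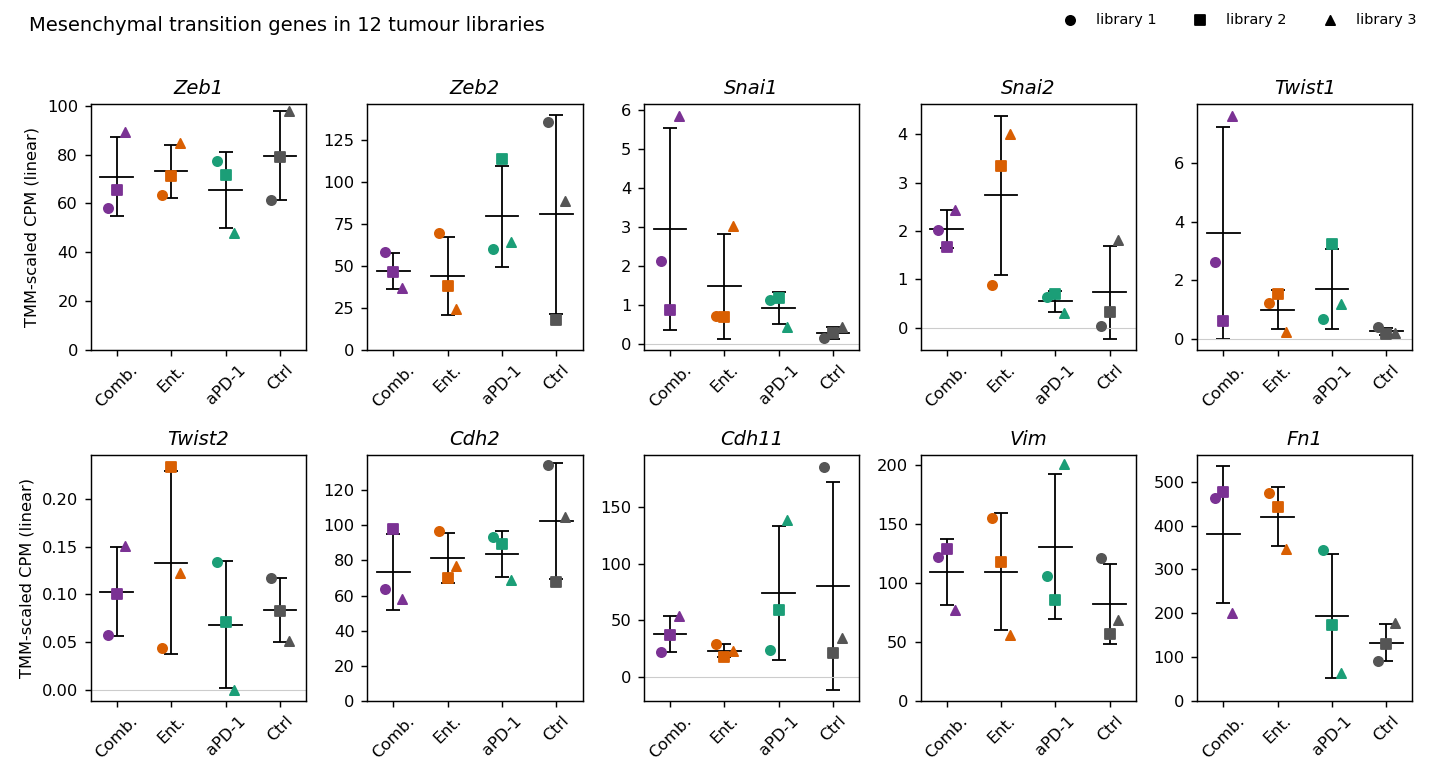
TMM-scaled level of the 10 genes (linear y axis that includes 0, in CPM) in combination, entinostat, anti-PD-1 and control libraries, where points are libraries, horizontal bars are means and error bars are SD over 3 libraries. Fn1 ranges over 200 to 477 CPM with entinostat, and Snai1 and Twist1 reach their highest levels, 5.86 and 7.62 CPM, in combination library 3.

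The SNAI and TWIST factor genes are taken first. Snai1 encodes Snail, a direct repressor of E-cadherin. Snai1 had 2.14, 0.88 and 5.86 CPM with the combination, 0.73, 0.70 and 3.02 CPM with entinostat, 1.14, 1.20 and 0.45 CPM with anti-PD-1, and 0.16, 0.29 and 0.46 CPM in control. All 3 combination and all 3 entinostat libraries lay above every control library, and combination library 3 and entinostat library 3 were the highest. The control values rest on 8, 14 and 18 counts. Against control, Snai1 rose with the combination by 3.29 on the log2 scale (SE 0.88, edgeR adjusted p = 0.037). With entinostat alone the log2 fold change was 2.30 (SE 0.85, edgeR adjusted p = 0.130) and with anti-PD-1 alone it was 1.62 (SE 0.84, edgeR adjusted p = 0.391), and neither passed.

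Twist1 encodes a factor of cranial mesoderm and limb that induces mesenchymal genes in carcinoma cells. Twist1 had 2.63, 0.60 and 7.62 CPM with the combination, 1.23, 1.52 and 0.24 CPM with entinostat, 0.67, 3.25 and 1.18 CPM with anti-PD-1, and 0.39, 0.17 and 0.20 CPM in control. The combination and the anti-PD-1 libraries all lay above every control library, and entinostat library 3 lay within the control range. Against control, Twist1 rose with the combination by 3.81 on the log2 scale (SE 1.03, edgeR adjusted p = 0.037). The log2 fold change was 1.96 with entinostat (SE 0.97, edgeR adjusted p = 0.237) and 2.72 with anti-PD-1 (SE 0.99, edgeR adjusted p = 0.228), and neither passed.

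In the combination against control, 2 of 9 tested genes were thus called higher and none lower, where 3.88% of all 17426 genes tested were called higher and 7.78% lower. The libraries of the combination and control did not overlap for 3 of the 9, Snai1, Twist1 and Fn1, all above control, against 15.2% of all genes above and 16.7% below. Both calls were lost when certain single libraries were left out. Without combination library 3 the log2 fold change of Snai1 was 2.32 (edgeR adjusted p = 0.129) and that of Twist1 2.65 (adjusted p = 0.129), and without combination library 1 they were 3.48 and 4.00 (adjusted p = 0.076 and 0.077). Leaving out control library 1, 2 or 3 gave adjusted p between 0.054 and 0.104 for Snai1 and between 0.072 and 0.085 for Twist1, and without entinostat library 2 Twist1 also missed the threshold (adjusted p = 0.052). With the fibroblast marker score as a covariate the log2 fold changes were 3.62 for Snai1 (adjusted p = 0.148) and 5.11 for Twist1 (adjusted p = 0.091), and with the replicate number as a block 3.10 and 3.84 (adjusted p = 0.054 and 0.073). Adjusted for the score of alveolar markers they were 3.56 and 3.95 (adjusted p = 0.057 and 0.081), so that neither call was kept in these fits. The fit with the fibroblast score called 0 of all 17426 genes in this comparison, so the loss there is not particular to Snai1 and Twist1. That with the alveolar score called 400 and that with the block 1087, against 2033 in the main fit.

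The promoters of Snai1 and Twist1, the factor genes with a call, are shown because SNAI and ZEB proteins act through the E-box CAGGTG, and in human cells Snail is known to bind its own promoter. Each stretch of 300 bases runs 5′ to 3′ on the plus strand of GRCm38.p6 and spans the RefSeq start site, with most of it upstream, at chr2:167537945-167538244 for Snai1 and chr12:33957421-33957720 for Twist1, and capitals mark CAGGTG on either strand.
Snai1: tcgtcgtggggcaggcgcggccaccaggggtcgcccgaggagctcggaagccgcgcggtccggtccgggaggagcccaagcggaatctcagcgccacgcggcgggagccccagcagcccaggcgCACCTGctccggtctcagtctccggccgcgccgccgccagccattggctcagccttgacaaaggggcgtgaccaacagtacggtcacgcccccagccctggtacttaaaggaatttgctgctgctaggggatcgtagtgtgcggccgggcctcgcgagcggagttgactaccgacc
Twist1: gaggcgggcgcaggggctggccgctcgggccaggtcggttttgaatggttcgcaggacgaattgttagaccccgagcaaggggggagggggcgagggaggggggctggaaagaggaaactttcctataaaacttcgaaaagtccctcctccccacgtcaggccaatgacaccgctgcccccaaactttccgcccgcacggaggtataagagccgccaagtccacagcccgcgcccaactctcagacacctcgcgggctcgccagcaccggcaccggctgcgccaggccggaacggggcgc

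The Snai1 stretch holds 1 CAGGTG, read on the minus strand, whose leftmost base lies at −126 from the start site. The windows of Twist1, Twist2, Vim and 4 Zeb2 start sites hold none, and they hold no E-box of the wider form CANNTG, of which CAGGTG is a case. Of 32817 RefSeq promoter windows of 300 bases, 20.2% hold CAGGTG on either strand and 72.3% hold CANNTG. These letters were not tested for binding.

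Snai2 encodes Slug, a relative of Snail. Snai2 had 2.03, 1.66 and 2.44 CPM with the combination, 0.88, 3.34 and 4.00 CPM with entinostat, 0.64, 0.71 and 0.30 CPM with anti-PD-1, and 0.04, 0.33 and 1.82 CPM in control. The combination libraries lay above every anti-PD-1 library, while both groups with entinostat overlapped the control range because of control library 3. The log2 fold change was 1.49 with the combination (SE 0.98, edgeR adjusted p = 0.327) and 1.91 with entinostat (SE 0.99, adjusted p = 0.261), and neither passed. Without control library 3 they were 3.44 (edgeR adjusted p = 0.051) and 3.86 (adjusted p = 0.0499), so that the value with entinostat passed. Over the 12 fits that left out a library the combination gave 0.93 to 3.44 (adjusted p up to 0.501). Entinostat alone gave 1.35 to 3.86 in these fits (adjusted p up to 0.467), and 1 of them passed. For the combination, Snai2 was at 1.93 with the fibroblast score as a covariate (adjusted p = 0.543) and at 1.83 with the alveolar score (adjusted p = 0.372). Twist2, a close relative of Twist1, had between 0 and 8 counts per library, at most 0.23 CPM. It had no count in anti-PD-1 library 3, which allows up to 0.091 CPM there, or more if mates of a pair were each counted. No fold change is given.

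Fn1 encodes fibronectin, a matrix protein that mesenchymal cells secrete and bind through integrins. Fn1 had 464, 477 and 200 CPM with the combination, 474, 443 and 346 CPM with entinostat, 344, 172 and 64.5 CPM with anti-PD-1, and 91.6, 130 and 177 CPM in control. Every library of the combination and of entinostat alone lay above every control library, and anti-PD-1 library 1 lay above combination library 3, so that the 6 libraries with entinostat and the 6 without overlapped. Averaged over both antibody states, Fn1 rose with entinostat by 1.32 on the log2 scale (SE 0.36, edgeR adjusted p = 0.041), with 401 ± 110 CPM with and 163 ± 99.1 CPM without (SD, n = 6 each). Fn1 was the only 1 of 9 tested genes called in this comparison, where 10.6% of all genes tested were called, 3.87% higher and 6.74% lower, and none of the 9 separated the 6 and 6 libraries, against 2.01% of all genes above and 2.32% below. DESeq2 called 4 of the 9, Fn1, Snai1 and Snai2 higher and Cdh11 lower, where it called 3399 genes. Against control, the log2 fold change of Fn1 was 1.52 with the combination (SE 0.51, edgeR adjusted p = 0.074), 1.66 with entinostat alone (SE 0.52, adjusted p = 0.081) and 0.54 with anti-PD-1 alone (SE 0.50, adjusted p = 0.648), and none of these passed.

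The call of Fn1 was near the threshold. It passed in 3 of 12 fits that left out a library, those without combination library 3, anti-PD-1 library 1 or control library 3, with a log2 fold change between 1.10 and 1.66 and an adjusted p between 0.030 and 0.098 over the 12. Without control library 1 it was 1.21 (adjusted p = 0.077). With the replicate number as a block it was 1.30 (adjusted p = 0.058), and adjusted for the score of alveolar markers 1.36 (adjusted p = 0.144). With the fibroblast marker score as a covariate it was 0.67 (SE 0.48, adjusted p = 0.481). Over all genes, the fit with the fibroblast score made 49 calls and that with the alveolar score 269, against 1849 in the main fit. An antisense gene, Apol7d, overlaps Fn1 exons by 292 bases in GENCODE M21, and reads of this pair cannot be told apart either. In bulk tissue, more cells that make a transcript and more of it per cell cannot be told apart.

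For the entinostat effect over all 12 libraries, the log2 fold change was 1.98 for Snai1 (SE 0.59, edgeR adjusted p = 0.054), 1.90 for Snai2 (SE 0.71, adjusted p = 0.101, or 2.88 and 0.021 without control library 3) and 1.53 for Twist1 (SE 0.67, adjusted p = 0.153). With a library left out, the value of Snai2 lay between 1.62 and 2.88 (edgeR adjusted p between 0.021 and 0.197), and 1 of 12 fits passed. Snai1 averaged 2.22 ± 2.01 CPM with entinostat and 0.62 ± 0.44 CPM without (SD, n = 6 each), and Snai2 averaged 2.39 ± 1.14 and 0.64 ± 0.63 CPM in the same order. Snai1 passed under upper quartile factors, with a filter of at least 1 CPM in 3 libraries, with DESeq2 and without combination library 2. Upper quartile factors gave a median of 0.15 over all genes on the log2 scale, against 0.02 under TMM, with 1046 genes called higher and 632 lower, against 674 and 1175. In the combination against control they gave a median of 0.28, against 0.05 under TMM, with 1100 genes called higher and 611 lower, against 677 and 1356.

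**Figure D2:**
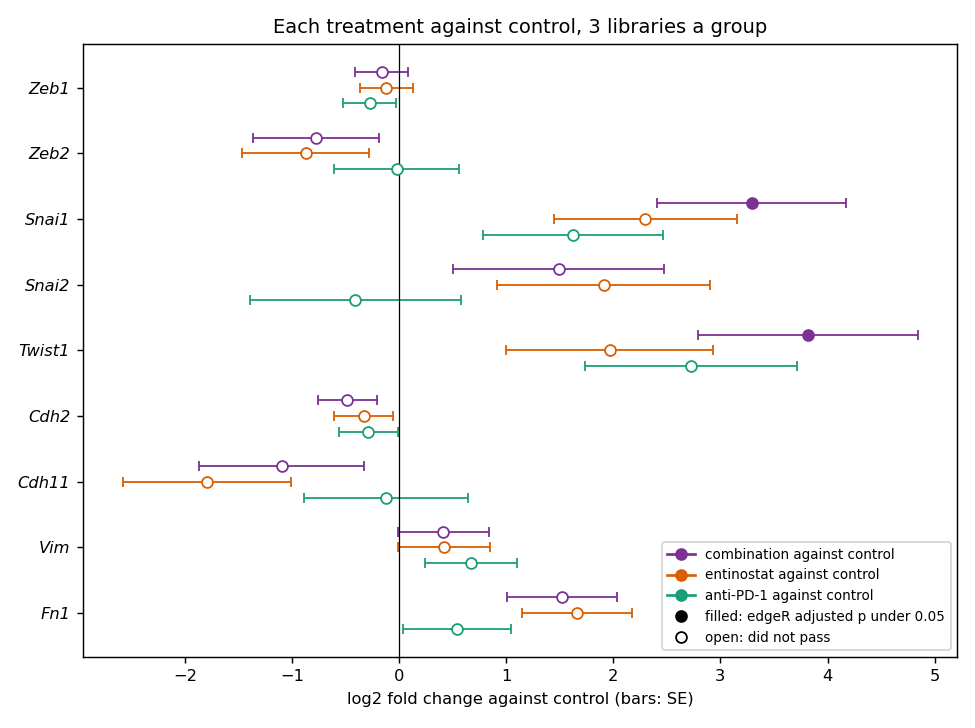
Log2 fold change of each of 9 genes against control (x axis, bars are SE) for the combination, entinostat alone and anti-PD-1 alone, with 3 libraries a group and filled points where the edgeR adjusted p is under 0.05. Snai1 and Twist1 with the combination, at 3.29 and 3.81, are the filled points, and the Zeb1 values lie within 0.28 of 0. The entinostat effect on Zeb1 over all 12 libraries, which is not plotted, changed sign with the scaling and in other refits.

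The ZEB genes did not pass in any comparison. Zeb1 encodes a repressor of E-cadherin that is also active in neural progenitors. Zeb1 was the most even of the 10 genes, with 58.1, 65.5 and 89.3 CPM with the combination, 63.2, 71.4 and 84.7 CPM with entinostat, 77.4, 71.6 and 48.0 CPM with anti-PD-1, and 61.6, 78.9 and 98.1 CPM in control. Its groups overlapped throughout, and its entinostat effect was −0.0046 on the log2 scale (SE 0.175, edgeR adjusted p = 0.989), turning to 0.12 under upper quartile factors. Zeb2, a relative of Zeb1 that is also used by macrophages and neural crest, had 57.9, 46.6 and 36.7 CPM with the combination, 69.8, 38.1 and 24.2 CPM with entinostat, 60.1, 113.7 and 64.4 CPM with anti-PD-1, and 136, 17.7 and 88.6 CPM in control. Every combination library lay below every anti-PD-1 library, while the control libraries spanned the whole range of the 12. The entinostat effect on Zeb2 was −0.81 (SE 0.42, edgeR adjusted p = 0.217), and without control library 2 it passed at −1.05 (adjusted p = 0.047). Over the 12 fits that left out a library it lay between −1.06 and −0.51 (adjusted p up to 0.433), and 1 of them passed. An antisense gene, Zeb2os, overlaps exons of Zeb2, and the strand setting of the counting is not given, so that the reads of the pair cannot be told apart. Zeb2os had between 64 and 450 counts per library, against 791 to 6928 for Zeb2.

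The cadherin genes and Vim did not pass either. Cdh2 encodes N-cadherin, which neural and neuroendocrine cells use as well as mesenchymal ones. Cdh2 lay between 58.3 and 98.2 CPM with the combination, 70.1 and 97.1 CPM with entinostat, 69.0 and 93.5 CPM with anti-PD-1, and 68.0 and 134 CPM in control, with an entinostat effect of −0.26 (SE 0.20, edgeR adjusted p = 0.392). Cdh11 had 21.9, 36.5 and 54.01 CPM with the combination, 29.2, 17.0 and 23.1 CPM with entinostat, 23.7, 58.5 and 139 CPM with anti-PD-1, and 186, 20.7 and 34.1 CPM in control. Control library 1 and anti-PD-1 library 3 stood above the other 10 libraries, and the entinostat effect was −1.39 (SE 0.55, edgeR adjusted p = 0.120), or −0.61 without control library 1. Vim lay between 77.1 and 129 CPM with the combination, 56.1 and 155 CPM with entinostat, 85.9 and 200.4 CPM with anti-PD-1, and 56.8 and 121 CPM in control, with an entinostat effect of 0.08 (SE 0.30, edgeR adjusted p = 0.884). The genes thus did not share a direction. Over the 9 tested genes the entinostat effect was positive for 5 and negative for 4, with a median of 0.08 beside 0.02 over all genes.

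No gene of the 9 passed for anti-PD-1 against control, where 0.00574% of all genes were called, or for its main effect over libraries with and without entinostat, where none was. At an unadjusted p under 0.05 the first held 1 of the 9 genes and the second 2, where 2691 and 1886 of the 17426 genes did, and DESeq2 called none of the 9 in either, where it called 648 and 103 genes. Twist1 had the largest of these main effects, 2.29 on the log2 scale (SE 0.68, edgeR adjusted p = 0.380), with 2.66 ± 2.66 CPM with and 0.63 ± 0.59 CPM without the antibody (SD, n = 6 each), and Snai1 had 1.31 (SE 0.58, adjusted p = 0.455). Twist1 was the 1 of 9 genes whose anti-PD-1 libraries all lay above control, against 6.79% of all genes above and 10.7% below. None of the 9 separated the 6 libraries with the antibody from the 6 without, as 0.0631% of all genes did above and 0.149% below.

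Entinostat alone against control called none of the 9 genes, where 5.27% of all genes were called, 1.3% higher and 3.98% lower. At the unadjusted level, 3 of the 9 had an unadjusted p under 0.05, as 4259 of the 17426 genes did, and DESeq2 called 2, Fn1 and Snai1, among 2389 genes. Both of these lay above control without overlap, against 13.1% of all genes above and 15.7% below. The combination did not separate from either single treatment by the test. Its libraries lay wholly above those of anti-PD-1 alone for Snai2 and wholly below them for Zeb2, as for 9.92% and 9.25% of all genes, and none of the 9 separated from entinostat alone, as 3.32% of all genes did above and 3.49% below. Against anti-PD-1 alone the log2 fold change was 0.97 for Fn1 (SE 0.51), 1.67 for Snai1 (SE 0.83) and 1.09 for Twist1 (SE 0.92), and against entinostat alone it was −0.15 for Fn1 (SE 0.50), 1.00 for Snai1 (SE 0.81) and 1.85 for Twist1 (SE 0.94). The edgeR adjusted p of these 6 values was at least 0.436, no gene of the table passed in either comparison, and no member had an unadjusted p under 0.05 or a DESeq2 call. The interaction, the effect of entinostat with the antibody minus that without it, was −0.69 for Fn1 (SE 0.71), −0.63 for Snai1 (SE 1.14) and −0.87 for Twist1 (SE 1.30), with adjusted p of at least 0.938. These intervals are wide, and the data do not show whether the combination acts like its parts.

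**Figure D3:**
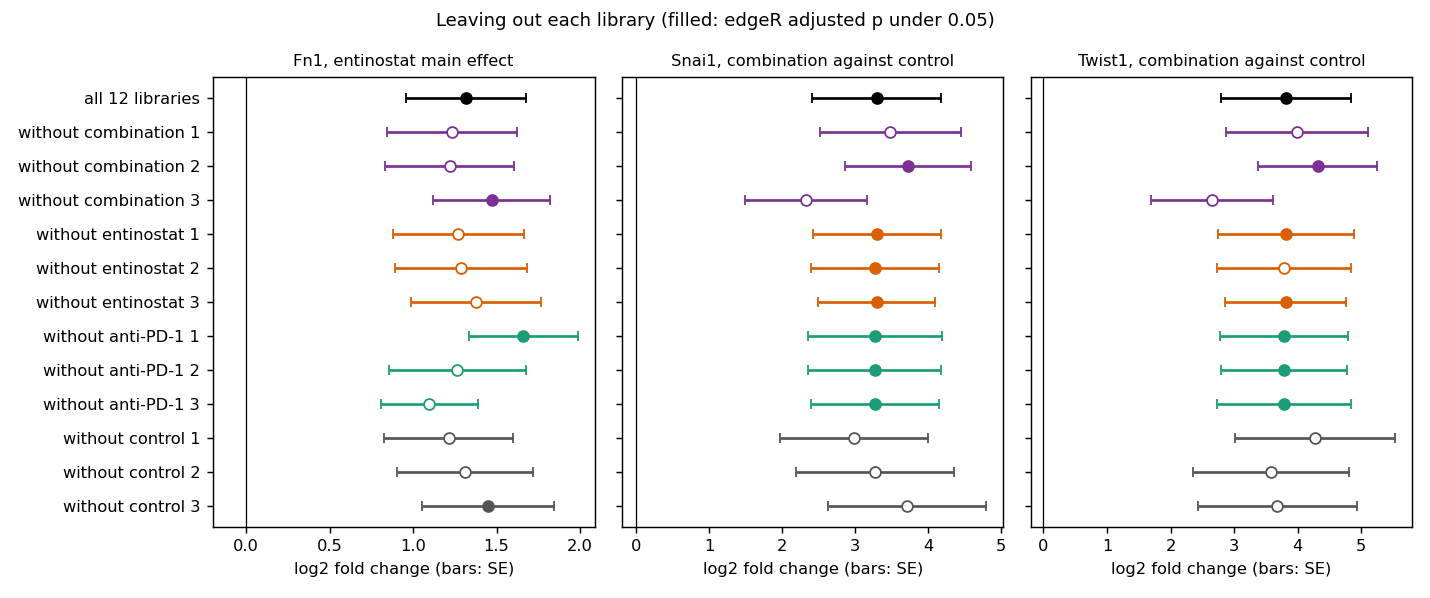
Log2 fold change (x axis, bars are SE) of Fn1 for the entinostat main effect and of Snai1 and Twist1 for the combination against control, from all 12 libraries and with each library left out, with filled points where the edgeR adjusted p is under 0.05. Each value stays above 1, while Fn1 is filled in 3 of 12 such fits, Snai1 in 7 and Twist1 in 6.

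The genes had their highest and lowest levels in different libraries. Combination library 3 had the highest Snai1 and Twist1 of the 12 libraries and the lowest Cdh2, and its Fn1 was the lowest of the libraries with entinostat. Entinostat library 3 had the highest Snai2 and the second highest Snai1, but the lowest Vim and 0.24 CPM of Twist1. Control library 1 held the highest Zeb2, Cdh2 and Cdh11 together with the lowest Snai1 and Snai2. Anti-PD-1 library 3 had the highest Vim and the lowest Zeb1 and Fn1.

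**Figure D4:**
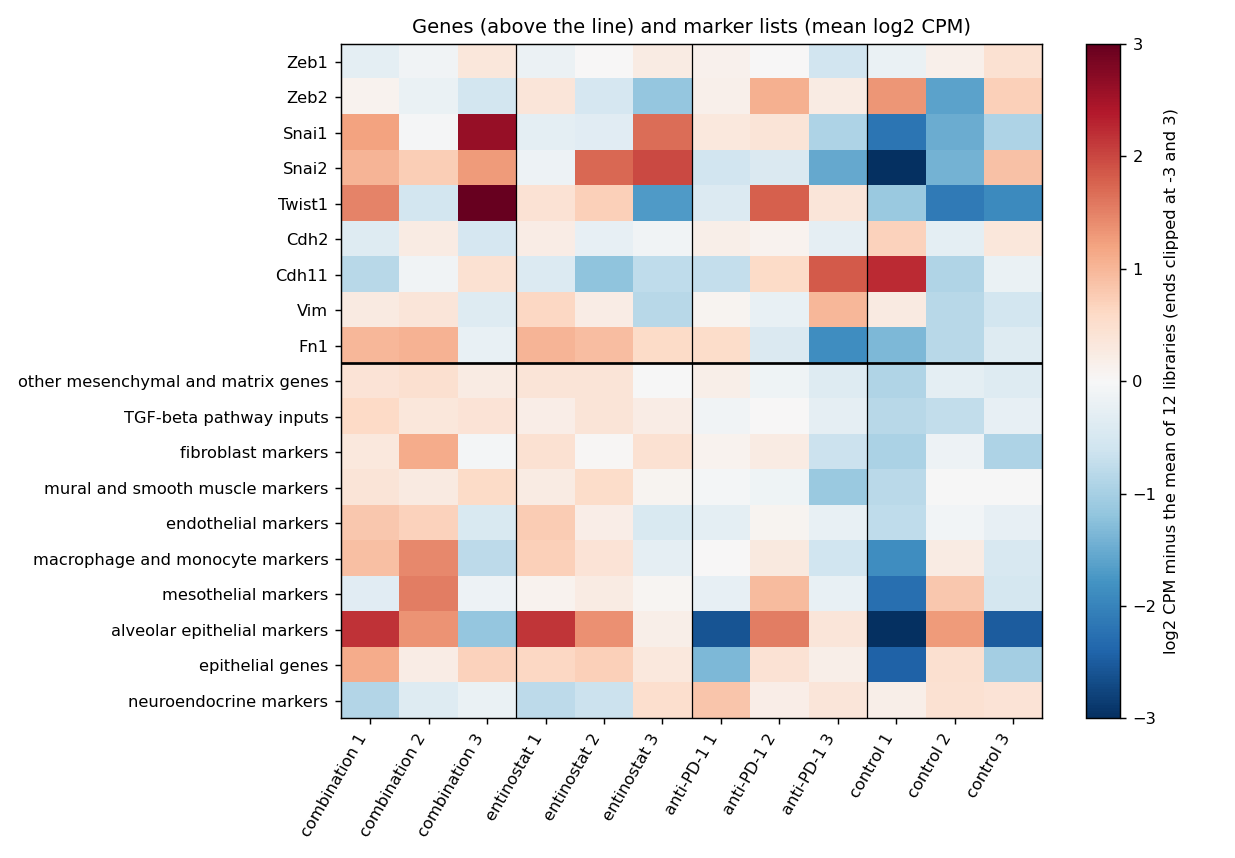
Log2 CPM of 9 genes (above the line) and mean log2 CPM of marker lists (below it), each minus its mean over the 12 libraries, with libraries as columns and colours clipped at −3 and 3. Control library 1 is low for Snai1, Snai2 and the alveolar, epithelial and macrophage lists and high for Cdh11 and Zeb2. Fn1 is high in 5 of the 6 libraries with entinostat and also in anti-PD-1 library 1 (8.43 log2 CPM, beside 8.44 in entinostat library 3).

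The genes whose log2 CPM was most like each of these over the 12 libraries differed from gene to gene. Among 12461 candidates, Fn1 was closest to Col5a2 (Pearson r = 0.96), Adamts2 (r = 0.96) and Col1a2 (r = 0.95), which encode fibrillar collagen chains and a protease that trims procollagen. Ric1 and Adcy6 were among the genes closest to Snai1 (r = 0.94 and 0.93). Snai2 was closest to Slk, Peak1 and Filip1l (r between 0.94 and 0.96), and Twist1 to Nfatc4, Mospd3 and Acin1 (r between 0.91 and 0.94). Zeb2 was closest to Cactin (r = 0.91), its antisense gene Zeb2os (r = 0.87) and Tenm2 (r = 0.85). Zeb1 was closest to Dyrk1a, Rfxap and Cpt1c, Cdh2 to Vcp, Hsd17b4 and Kif20a, Cdh11 to Cog8, Fbxo31 and Jund, and Vim to Atmin, Vac14 and Pgs1, each with r between 0.84 and 0.92. These values describe libraries that share depth and tissue makeup, and the closest of so many candidates is high by selection.

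Other genes of the programme were taken from lists. Of 28 other mesenchymal and matrix genes, 5 rose with entinostat over all 12 libraries and none fell. Of all genes tested, 3.87% were called higher and 6.74% lower. The median log2 fold change of the 28 was 0.61, beside 0.02 over all genes. Cd44, a hyaluronan receptor, averaged 39.2 ± 9.53 CPM with entinostat and 18.7 ± 6.90 CPM without (log2 fold change 1.09, SE 0.22, edgeR adjusted p = 0.015). Itga5, the alpha chain of a fibronectin receptor, averaged 14.9 ± 3.87 and 5.74 ± 2.34 CPM in the same order (1.36, SE 0.30, adjusted p = 0.021). Both separated the 6 libraries with entinostat from the 6 without. Lox, an enzyme that cross-links collagen (1.32, SE 0.33), and Tcf4, an E protein partner of TWIST factors (0.67, SE 0.16), rose as well, and so did the integrin gene Itgav (1.02, SE 0.26), which lies outside the naming rule and was chosen after its value was seen. With the fibroblast score as a covariate none of the 28 passed, at a median of 0.39, and with the alveolar score Cd44 alone did. These fits called 49 and 269 of all genes, against 1849 in the main fit. Upper quartile factors called 9 of the 28 higher and DESeq2 11, where they called 1046 and 1431 of all genes higher. Against control, 6 of the 28 rose with the combination, where 3.88% of all genes tested did.

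Of 19 genes of TGF-beta signalling, a main inducer of SNAI and ZEB genes, 4 rose with entinostat and none fell, at a median of 0.70. Over all genes tested, 3.87% were called higher and 6.74% lower. Smad6, an inhibitory SMAD, averaged 4.44 ± 2.97 CPM with entinostat and 0.84 ± 0.38 CPM without (2.44, SE 0.42, edgeR adjusted p = 0.010), with no overlap. Smad3, a signal transducer of the pathway, averaged 19.5 ± 7.68 and 7.64 ± 4.94 CPM (1.45, SE 0.27, adjusted p = 0.012). Ltbp2, a matrix protein related to those that hold latent TGF-beta (1.59, SE 0.29), and Skil, a repressor of SMAD signalling (0.70, SE 0.17), rose as well. Genes that promote and genes that restrain the pathway were thus both among the 4. With the fibroblast score or the alveolar score as a covariate Smad6 was the 1 gene of the list that passed. DESeq2 called 8 of the list higher, where it called 1431 of all genes higher.

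Of 25 corepressor partners and relatives of the factors, 1 rose and 2 fell, shares near the 3.87% and 6.74% of all genes. Rcor1, which encodes the corepressor CoREST, averaged 31.1 ± 1.55 CPM with entinostat and 21.1 ± 2.91 CPM without (0.56, SE 0.13, edgeR adjusted p = 0.025). Ctbp1, a corepressor that binds ZEB proteins (−0.55, SE 0.15), and Rbbp4, a histone-binding subunit of deacetylase complexes (−0.63, SE 0.17), fell, but neither passed without control library 1, with the replicate block, with either marker score or under upper quartile factors. Under upper quartile factors 3 genes of the list rose, and the median of the list was 0.09, against −0.04 under TMM. Rcor1 kept its call in these fits except those with a marker score.

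Epithelial genes are the class that the factors repress. Of 29 tested epithelial genes none passed edgeR's test in the entinostat comparison, 6 had an unadjusted p under 0.05, as 5068 of the 17426 genes did, and DESeq2 called 6, all higher, among its 3399 genes. The median log2 fold change was 0.82, with 26 of 29 positive. Without control library 1 the median was 0.59, and with the alveolar score as a covariate it was 0.47. Among these, Tjp1, a tight junction scaffold, averaged 82.3 ± 22.2 CPM with entinostat and 68.9 ± 16.5 CPM without (SD, n = 6 each). Neuroendocrine markers fell for 4 of 16 genes, Scg5, Uchl1, Calca and Scg2, at a median of −0.83, where 6.74% of all genes were called lower. Without control library 1 Scg2 did not pass, and with either marker score Scg5 alone did.

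**Figure D5:**
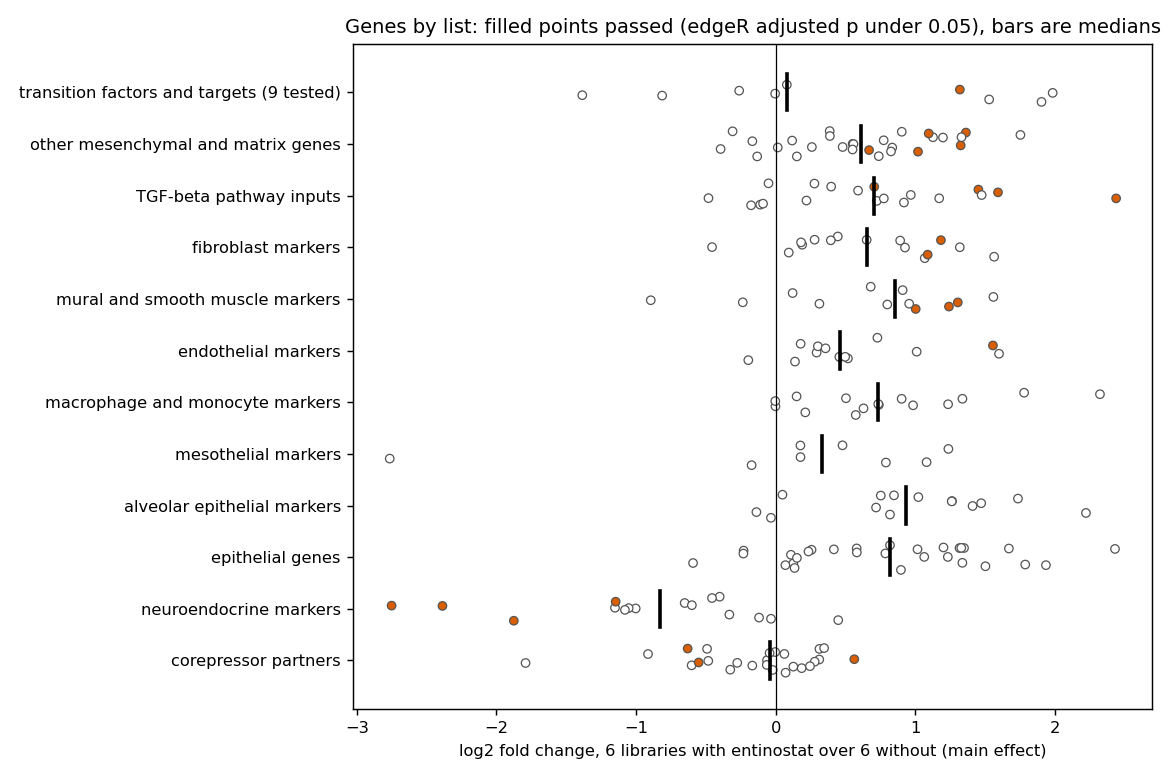
Log2 fold change for the entinostat main effect (x axis, 6 libraries with entinostat over 6 without) of each tested gene by list (rows), with filled points where the edgeR adjusted p is under 0.05 and bars at the median. The 9 transition genes centre on 0.08, under TMM factors, while the other mesenchymal genes centre on 0.61, the epithelial genes on 0.82 and the neuroendocrine markers on −0.83.

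Some markers of other cell types were higher with entinostat, as Fn1 was, and most did not pass the test. The counts below stand beside 3.87% of all genes tested that were called higher in this comparison. Fibroblast markers were higher for 2 of 15 genes tested, Col6a1 (log2 fold change 1.09, SE 0.22, edgeR adjusted p = 0.014) and Pdgfra (1.18, SE 0.33, adjusted p = 0.043), at a median of 0.65. Without control library 1, and with the replicate block, Col6a1 alone was called, and with the alveolar score none was. Their summed level lay between 667 and 1578 CPM with the combination, 737 and 938 CPM with entinostat, 249 and 934 CPM with anti-PD-1, and 363 and 502 CPM in control, with 1 marker at 0 in a control library. Mural markers were higher for 3 of 12 genes, Myh11, Cspg4 and Notch3, of which Myh11 alone passed without control library 1, at a median of 0.85, and summed to between 191 and 316 CPM with the combination, 226 and 341 CPM with entinostat, 79.9 and 228 CPM with anti-PD-1, and 164 and 283 CPM in control. Endothelial markers were higher for 1 of 14 genes, Erg, which did not pass without control library 1, at a median of 0.46, and summed to between 95.5 and 213 CPM with the combination, 94.8 and 205 CPM with entinostat, 101 and 131 CPM with anti-PD-1, and 94.6 and 119 CPM in control.

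In the entinostat comparison, 5068 of the 17426 genes tested had an unadjusted p under 0.05, and DESeq2 called 3399. The counts in this paragraph are to be read beside these. None of 15 macrophage and monocyte markers passed edgeR's test, at a median of 0.73, with 4 at an unadjusted p under 0.05 and 2 called by DESeq2. They summed to between 253 and 1292 CPM with the combination, 300.2 and 950.2 CPM with entinostat, 376 and 602 CPM with anti-PD-1, and 297 and 661 CPM in control, led by Lyz2 at 615 ± 355 CPM with entinostat and 326 ± 116 CPM without. C1qb averaged 27.5 ± 11.4 and 28.0 ± 12.7 CPM in the same order. None of 14 alveolar markers passed either, at a median of 0.93, with 1 at an unadjusted p under 0.05 and 1 called by DESeq2. They summed to between 119 and 690.4 CPM with the combination, 206 and 755 CPM with entinostat, 111 and 551 CPM with anti-PD-1, and 106 and 502 CPM in control, with 4 of the 14 at 0 in a control library. Sftpc, which marks alveolar type II cells, ranged from 5.45 to 237 CPM with entinostat and from 0.098 to 201 CPM without. None of 8 mesothelial markers passed, at a median of 0.33, with 2 at an unadjusted p under 0.05, in opposite directions, and 2 called by DESeq2. Of the 8, 6 had a positive log2 fold change, while Gpm6a, the most expressed, had −2.76 (SE 0.97, edgeR adjusted p = 0.087). Gpm6a averaged 36.3 ± 29.7 CPM with entinostat and 256 ± 312 CPM without. Its highest level, 863 CPM, was nearly all of the sum of the list in control library 1. In that library the mean log2 CPM of the list, −1.75, was the lowest of all libraries, so Gpm6a did not follow the rest of the list there. For these markers too, the part in the levels of Snai1, Snai2 and Twist1 was not tested, apart from the fits that hold the fibroblast or alveolar score.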

How the data were processed

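RNA was sequenced from dissected tumour tissue after poly(A) selection, per the labels' protocols. The structural RNAs Rpph1, Rn45s and Rmrp still took between 7.84% and 36.4% of the counts per library, and the reason was not tested. The authors deposited raw counts per gene for 12 libraries, and all columns were used. Per the submitters' processing notes, the tools and build include mm9, STAR 2.5.4a, Trimmomatic 0.36, Trim Galore, R 3.5.1 and DESeq2 1.22.2. Neither strand setting nor annotation is stated there. Between 65.3% and 77.2% of counts from 1 to 20 per library are even, so mates of a pair may each have been counted, and refitting with halved counts was an alternative. Libraries were grouped by title, because the combination libraries are tagged with the antibody only, and all carry the batch label 2. All 66 pairs of libraries differed by more than sampling noise (lowest chi-square over its degrees of freedom, 33.5).

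Genes were kept with filterByExpr (17426 of 22738), scaled by TMM and fitted in edgeR 4.0.16 (R 4.3.3) with a mean per group over 12 libraries. The robust quasi-likelihood F test gave 8 comparisons, adjusted by Benjamini-Hochberg over all genes, with a threshold of 0.05. A main effect averages an agent's effect over both states of the other. Exon lengths are unions over all annotated transcripts in GENCODE M21, a later build than the counts, so coordinates are given for promoters alone. The floor for a count of 0 is 3 counts per library, would be higher if mates were each counted, and covers counting error only. The scripts were tested on simulated data. The genes and lists were chosen with earlier results of these data known. The naming rule takes all 10 genes, up to 4 called genes per list by adjusted p or else the 2 most expressed, and the 3 genes most correlated with each member (mean log2 CPM of at least 1, prior count 2), of which some are not reported here. Alternatives were RLE and upper quartile factors, other filters, DESeq2 1.42.0, non-robust estimation, a replicate block, marker score covariates, removal of structural RNAs, halved counts and leaving out each library. A fit without control library 1 and combination library 3 was chosen after seeing the data.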

Additional observations from a re-analysis of the deposited data

Results flagged for a closer look

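Fn1 in combination library 3, at 200.4 CPM, lay far below the other 5 libraries with entinostat, which held between 346 and 477 CPM. On the log2 scale its gap to the nearest library took 0.630 of the range of the 6, above Dixon's critical value at 95% for 6 samples. Chance flags about 1 in 20 such groups, and 18 groups of 6 were examined. Without this library the entinostat effect on Fn1 was 1.47 on the log2 scale (edgeR adjusted p = 0.044). The same library held the highest Snai1 and Twist1, and its fibroblast (667 CPM in sum), macrophage and alveolar markers were the lowest of the libraries with entinostat; their part in this value was not tested.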

How the results depend on the processing

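Of 744 refits of 31 fold changes, 675 kept their direction and side of the threshold, 33 lost the call, 14 gained one and 22 changed sign. For entinostat over all libraries, the count of called genes among the 9 was 1, and 2 under upper quartile factors and with at least 1 CPM in 3 libraries, 4 with DESeq2, and 0 with no filter, the replicate block, either marker score covariate, or without control 1 and combination 3 together; leaving out a library gave 0 to 2. For the combination against control it was 2, and 0 with the replicate block, either covariate, or those libraries left out together; DESeq2 gave 3, with Fn1 added, and leaving out a library gave 0 to 3. For entinostat alone it was 0, 2 with DESeq2, and 0 to 1 with a library left out. The replicate block changed no other count of the 8. Same-numbered libraries deviated from their group means with correlations between −0.29 and 0.23, and 1 of 12 was closest to its own number. No pairing by number was thus seen, though with 3 libraries per group this check cannot exclude one. Over all genes, the block gave 974 calls for entinostat, and the fit without it 1849. Leaving out a library gave 600 to 2022 calls there.

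Signs changed for these values, none of which had passed the test. The entinostat effect on Zeb1 was 0.12 under upper quartile factors, 0.0018 with at least 1 CPM in 3 libraries, 0.088 with the alveolar score, 0.0036 with halved counts and −0.11 to 0.083 with a library left out. That on Vim was −0.090 to 0.29 with a library left out. Fn1 under anti-PD-1 alone was −0.12 with the fibroblast score and −0.19 to 0.94 with a library left out. The combination against anti-PD-1 gave −0.072 for Twist1, and against entinostat 0.16 for Fn1, without control 1 and combination 3; with a library left out these were −0.072 to 1.95 and −0.34 to 0.16. Interactions with a library left out were −1.59 to 0.42 for Snai1, −2.04 to 0.0099 for Twist1 and −1.09 to 0.039 for Fn1. The causes were not tested. Low counts limit Snai1, Snai2 and Twist1, which held as few as 8, 2 and 8 counts.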

Other observations

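Rest, a repressor of neuronal genes and not among the 10, averaged 9.29 ± 3.40 CPM with entinostat and 4.63 ± 3.48 CPM without (SD over 6 libraries each). It did not pass the test (log2 fold change 1.16, SE 0.42, edgeR adjusted p = 0.091).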
